A study of Mus musculus with 12 samples.

Results

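The 3' untranslated region (3' UTR) is the stretch of a messenger RNA that follows the stop codon, and its DNA lies at the far end of the gene body. DNA methylation levels of 3679 such regions were compared in mouse embryonic stem cells, germ cells and germ cell-like cells. They were chosen as the 3' UTR entries of genes on chromosomes 1 to 19 that carried a level in all 12 libraries, out of 5061 3' UTR entries seen in at least 1 library and 176831 features of all classes. The rule itself used the presence of a level and not its size. Of the 3679 entries, 3675 belonged to protein-coding genes and 3678 had a 3' UTR annotated in GENCODE M21 on GRCm38. The label of the class therefore fitted the annotation for all but 1 entry.

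The assay was RRBS, reduced representation bisulfite sequencing. MspI cuts genomic DNA at CCGG, and bisulfite then converts unmethylated cytosines only. The 12 libraries formed 6 groups of 2, all of strain C57BL6. They were female embryonic stem cells (ESC), parthenogenetic embryonic stem cells (pESC), primordial germ cells at embryonic day 9.5 (E9.5 PGC) and 12.5 (E12.5 PGC), and PGC-like cells induced from either stem cell (ESC-PGCLC and pESC-PGCLC). Induction took 2 days to epiblast-like cells with bFGF, Activin A and KSR, and then 4 days with BMP4 at 500 ng/ml, SCF at 100 ng/ml, EGF at 50 ng/ml and LIF. pESCs come from activated oocytes and hold no paternal genome. According to the study, both stem cell types carried an Actin-GFP transgene, PGCLCs were sorted as SSEA1 and CD61 double positive cells, and PGCs came from female embryos. The study describes the 2 libraries of a group as biological replicates, and the labels do not say whether they came from separate cultures or litters, so each p-value measures the spread between these libraries.

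Methylation in mammals sits mostly on cytosines of CpG pairs. Gene bodies, with the 3' UTR at their end, are usually methylated, whereas promoters in CpG islands usually are not. Primordial germ cells lose most of this methylation while they migrate to and settle in the gonad. Each 3' UTR carried 1 value per library, given here in percent, and differences are in percentage points. The read depth behind a value is unknown, so no counting interval could be given.

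RRBS reached a particular kind of 3' UTR. The 3675 protein-coding regions measured in every library had a median annotated length of 2040 bp, 37 CpGs and 4 MspI sites. The 15660 autosomal protein-coding genes with no 3' UTR level in any library had medians of 960 bp, 9 CpGs and 0 MspI sites. No MspI site lay inside the annotated 3' UTR of 1.06% of the former and 59.2% of the latter. A CpG island overlapped 13.1% of the former and 1.02% of the latter. The regions described here are thus the longer and more CpG-rich ones.

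To show the kind of site that MspI cuts, the one nearest the middle of the 3' UTR is given for 5 genes named below. Each line gives 30 bases of GRCm38, 5' to 3' on the strand of the gene, and the capitals mark the MspI site. Whether that site was read in these libraries is not known. The files hold 1 value per 3' UTR, so the share that each site had in that value is not known. Hpca and Ssr1 fell steeply between the PGC stages, Pmepa1 was nearly unmethylated in stem cells, Emx2 was methylated in stem cells, and Aqp2 stayed low in every library.
Hpca, chr4:129112175-129112204, minus strand: ccgagatagccctCCGGtcaggttctgtat
Ssr1, chr13:37973145-37973174, minus strand: tggtgatgctggcCCGGgctagctccagct
Pmepa1, chr2:173225918-173225947, minus strand: cctgcagatccatCCGGgcagaacattccc
Emx2, chr19:59464228-59464257, plus strand: aaccggcgccgggCCGGgcaccgcttacag
Aqp2, chr15:99584168-99584197, plus strand: agaaggggctcgcCCGGgaacctggcagta
The 30-base window of Emx2 held 5 CpGs, that of Hpca and that of Aqp2 held 2 each, and those of Ssr1 and Pmepa1 held 1 each.

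The mean level over the 3679 3' UTRs was highest in E9.5 PGCs. Group means were lowest in the stem cells, although ESC replicate 1 lay above both E12.5 PGC libraries. It was 60.7% and 60.6% in the E9.5 PGC libraries and 38.6% and 39.0% in the E12.5 PGC libraries. ESC-PGCLCs had 48.4% in both libraries, and pESC-PGCLCs had 44.6% and 44.1%. The pESC libraries had 38.1% and 35.2%. The ESC libraries stood apart from each other, with 42.1% in replicate 1 and 31.1% in replicate 2. ESC replicate 2 was the lower of the pair at 3082 of the 3679 3' UTRs, and its mean was 73.8% of that of replicate 1. The ESC libraries differed by at least 10 points at 55.2% of 3' UTRs, against 12.2% in pESCs and 2.34% to 6.41% in the PGC and PGCLC groups. Counts of calls against ESCs are therefore also given with each ESC library left out.

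The groups also differed in the shape of the distribution. In E9.5 PGCs, 45% of 3' UTRs had a group mean between 60% and 80%, and 20.7% lay at 80% or more. In E12.5 PGCs the peak stood at 40% to 60%, with 55.0% of 3' UTRs, and 0.0544% lay at 80% or more. A second, unmethylated peak was present in every group. The share of 3' UTRs under 10% was largest in stem cells, with 18.1% for ESCs and 17.9% for pESCs. PGCs had 10.7% (E9.5) and 13.2% (E12.5), and PGCLCs 12% (from ESCs) and 12.1% (from pESCs).

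**Figure D1:**
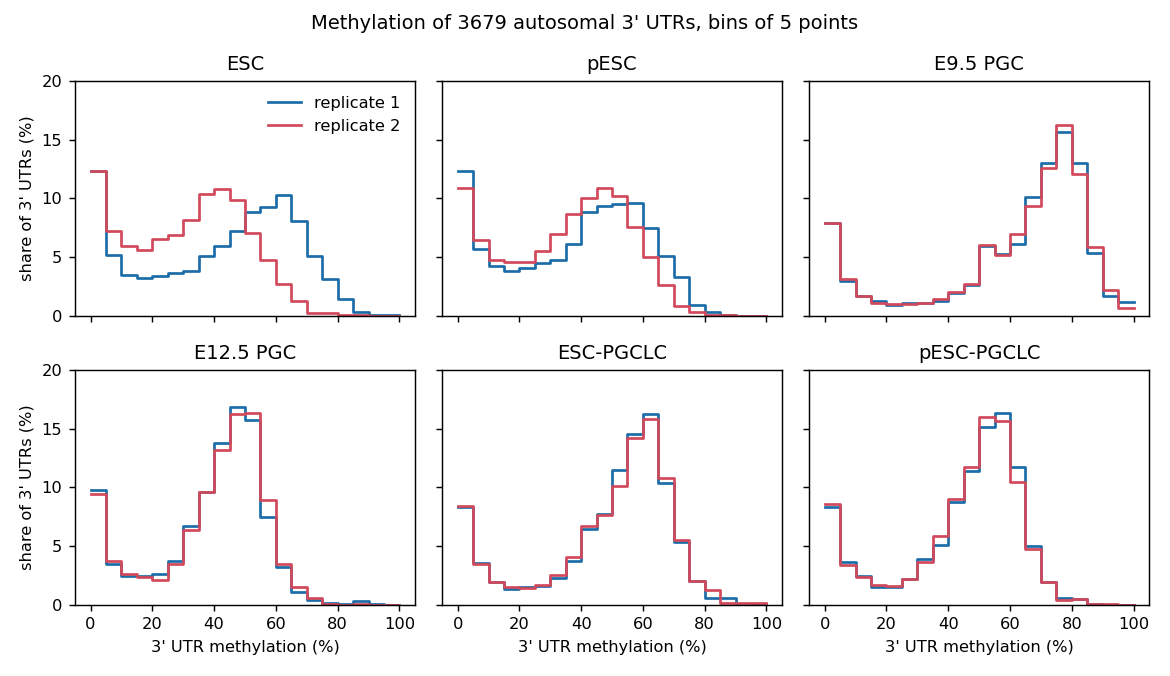
Histograms of the methylation level of 3679 3' UTRs, 1 panel per group and 1 line per library. The x axis is the level in percent in bins of 5 points and the y axis the share of 3' UTRs in percent. The lines of the 2 replicates lie close together except in ESCs, and the upper peak sits highest in E9.5 PGCs.

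Most 3' UTRs lost methylation between E9.5 and E12.5, and most lost a similar share of it. The mean fell from 60.7% ± 0.0850 (SD, n = 2) to 38.8% ± 0.305 (SD, n = 2), a difference of -21.8 points, and the nearest libraries of the 2 stages were 21.6 points apart. With 2 libraries against 2, the smallest p of an exact two-sided permutation test is 0.333, which this difference reached. Tested 3' UTR by 3' UTR with limma, 3010 were called lower and 3 higher at E12.5, where a call needed an adjusted p under 0.05 and a difference of 10 points. That is 81.8% of the 3' UTRs called lower, beside 49.6% of all 137202 features of the fit, of which 0.035% were called higher. Repeats were called at 84.9%, introns at 64.0%, promoters at 32.2% and 5' UTRs at 7.58%. A feature under 10% at E9.5 cannot fall by the 10 points a call needs, so these rates do not compare the share of methylation lost. At E9.5 the mean was 6.81% over the 5' UTRs of 2487 of the genes and 18.8% over the promoters of 2970.

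The share kept varied little. Of the 2847 3' UTRs at 50% or more in E9.5 PGCs, the median E12.5 level was 64.7% of the E9.5 level, with an interquartile range of 59.8% to 69.0%. The kept share was under 40% for 48 of them and over 90% for 8. The mean of each of the 19 chromosomes fell to 62.7% to 64.8% of its E9.5 value, except chromosome 18 at 69.1%. Chromosome 18 held 13 identical entries that share 1 protocadherin 3' UTR, and with identical entries counted once it stood at 65.6%.

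The largest fall was that of Fgfr1, which encodes a receptor for fibroblast growth factors. Its 3' UTR read 92.6% and 94.4% in the E9.5 libraries and 24.3% and 21.4% in the E12.5 libraries (difference -70.6 points, log2 odds -5.37 ± 0.20 SE, adjusted p = 7.47e-05). Dlgap2, a postsynaptic scaffold protein, followed, from 90.5% and 94.2% to 26.4% and 23.4%. Hpca, the neuronal calcium sensor hippocalcin, had 69.2% and 69.5% against 13.9% and 16.6%. Genes were named here only where the stages did not overlap, so that separation follows from the choice.

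Other genes among the 10 largest falls covered varied functions. Fanca, of the Fanconi anaemia DNA repair pathway, went from 75% and 74.4% to 19.6% and 21.6%. Kdm4b, a histone lysine demethylase, went from 95.4% and 92.4% to 41.4% and 38.9%. Apoc4, an apolipoprotein, went from 90.1% and 92% to 41.8% and 32.2%, and Hal, histidine ammonia-lyase, from 82.5% and 83.1% to 31.5% and 27.8%. Ssr1, a subunit of the translocon-associated protein complex, went from 67.9% and 62.6% to 14.1% and 10%. Vps8, an endosomal tethering subunit, went from 61.1% and 62.8% to 9.6% and 9.0%. Emp3, a small membrane protein, had the widest replicate spread of the 10, 90.6% and 66.7% before and 14.3% and 33.3% after, and lost its call without E9.5 replicate 1 or without E12.5 replicate 1.

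The 3 rises were small and 2 of them lay in the HoxD cluster. Hoxd3, a homeobox transcription factor of body patterning, rose from 10% and 10.5% to 29.7% and 23.3% (16.2 points, adjusted p = 0.00768). Hoxd8 was listed at 0% in both E9.5 libraries and had 13.3% and 16.7% at E12.5. Umod, the kidney protein uromodulin, had 29.1% and 34.0% against 39.7% and 45.2%. The 3 calls were lost with untransformed levels, that of Hoxd8 also without any 1 of the 4 libraries, and that of Umod also without E9.5 replicate 1 or either E12.5 library. When each library was centred on the median of all its features, 1293 3' UTRs were called lower and 297 higher. Most calls over all 137202 features then went the other way, with 17313 lower and 46276 higher. The median of all features fell from 34.5% to 19.5%.

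A few 3' UTRs stayed highly methylated at E12.5. The highest was Uhrf1bp1, with 90% and 85.7%, after 75% and 77.1% in E9.5 PGCs. Olfr1152, an olfactory receptor, had 76.9% and 86%. Svil, which encodes the actin-binding protein supervillin, had 74.0% and 73.6% at E12.5 and was also the highest 3' UTR over all 12 libraries, between 73.6% and 89.5%. Apc, the tumour suppressor of Wnt signalling, had 77.1% and 73.3%, and Gbp5, a guanylate-binding protein, 72.3% and 75.6%.

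**Figure D2:**
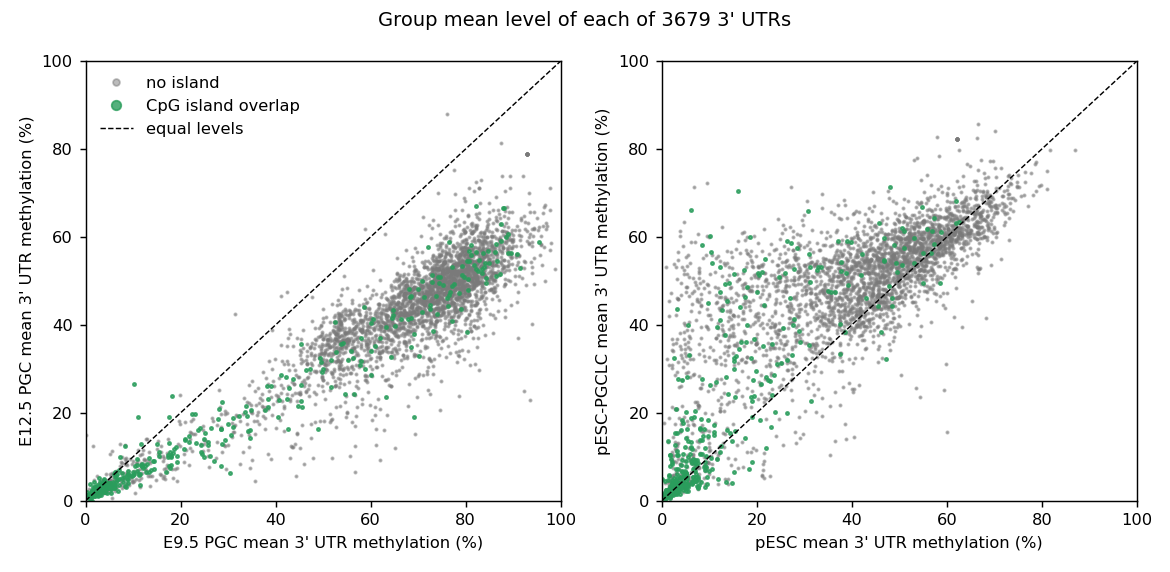
Group mean level of each of the 3679 3' UTRs, E12.5 PGCs against E9.5 PGCs on the left and pESC-PGCLCs against pESCs on the right, both axes in percent. Each point is 1 3' UTR, green where a CpG island overlaps it, and the dashed line marks equal levels. On the left nearly all points lie below the line along a single slope. On the right a group of 3' UTRs near 0% in pESCs lies far above the line.

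The level of a 3' UTR went with its sequence and position. The 483 3' UTRs that overlap a CpG island had 24.4% ± 0.0430 (SD, n = 2) in E9.5 PGCs and 15.5% ± 0.264 in E12.5 PGCs. The 3196 without an island had 66.1% ± 0.104 and 42.4% ± 0.312. The shares kept were alike, at 63.4% and 64.0%. Calls were fewer with an island, 160 of 483 (33.1%) against 2850 of 3196 (89.2%), where the call also needs a difference of 10 points. Levels were also higher farther from the start of the gene, with the distance taken to the nearest annotated piece of the 3' UTR. The 57 3' UTRs within 500 bp of the gene start had 35.1% in E9.5 PGCs, the 409 at 500 to 2000 bp had 41.7%, the 514 at 2000 to 5000 bp had 55.3%, the 1207 at 5000 to 20000 bp had 61.8%, and the 364 beyond 100000 bp had 70.3%. With 3' UTRs split into 5 equal groups by CpG density, the 4 groups of lower density had between 62.7% and 66.8% in E9.5 PGCs and the densest group had 44.6%.

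In all, 321 3' UTRs were under 10% in every library. A CpG island overlapped 240 of them (74.8%, beside 13.1% of all 3679). The start of another protein-coding gene lay in or within 500 bp of 73 of the 321 (22.7%), beside 6.36% of all 3' UTRs. Either an island or such a start was found at 262. The lowest over all libraries were those of Aup1, a lipid droplet protein, which lay between 0% and 3.2%, Ndufs6, a subunit of respiratory complex I, and the lens crystallin Crygn. Il17rc, a receptor of interleukin 17, and Gpr137c completed the 5 lowest. All but Gpr137c overlapped an island.

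The promoter of the same gene was far less methylated than its 3' UTR in every group. Both had a level in all 12 libraries for 2970 genes. In E9.5 PGCs the 3' UTRs of these genes had a mean of 61.6% ± 0.113 (SD, n = 2) and the promoters 18.8% ± 0.322. In E12.5 PGCs the values were 39.3% ± 0.317 and 11.8% ± 0.198. ESCs had 36.9% ± 7.83 and 10.5% ± 1.09, and pESCs had 37.0% ± 2.07 and 10.9% ± 0.0612. ESC-PGCLCs had 49.1% ± 0.0314 and 14.5% ± 0.238, and pESC-PGCLCs had 45% ± 0.262 and 13.4% ± 0.190. The 3' UTR was the higher of the 2 in 85.4% to 88.1% of genes, taking group means over libraries.

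**Figure D3:**
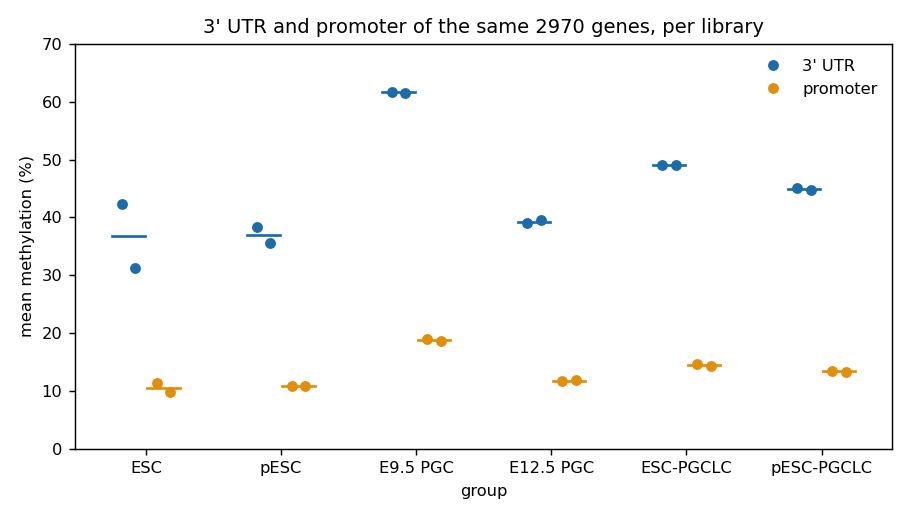
Mean methylation in percent of the 3' UTRs (blue) and promoters (orange) of the same 2970 genes in each group. Points are libraries and short lines are group means. The 3' UTR mean lies above the promoter mean in all 12 libraries, and both are highest in E9.5 PGCs.

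Measured in points the 3' UTR lost more than the promoter between E9.5 and E12.5, and as a share the losses were close. The gap of 42.8 points at E9.5 fell to 27.5 points at E12.5, a change of -15.3 points (exact permutation p = 0.333). The 3' UTR mean kept 63.7% of its E9.5 value and the promoter mean 62.7%. The mean ratio of 3' UTR to promoter was 3.28 at E9.5 and 3.33 at E12.5 (exact permutation p = 0.667). Among the 384 genes with both regions at 50% or more in E9.5 PGCs, the 3' UTR kept 63.8% and the promoter 62.2%. Each gene was tested on the log2 odds, with the direction and the limit of 10 points taken from the levels in percent. The difference of 3' UTR minus promoter was called lower at E12.5 in 1621 genes and higher in 93 of 2970. The fit held 3086 genes, of which 57.2% were called, 54.1% lower and 3.11% higher. The sign counts, so that a gene whose promoter exceeded its 3' UTR was higher by this measure when the regions drew closer. Against ESCs the difference was called higher in 418 genes and lower in 102 in ESC-PGCLCs (17.5% of the 3076 genes of the fit, 13.9% higher and 3.58% lower). The calls numbered 998 without ESC replicate 1, 585 without ESC replicate 2, and 252 and 187 without either ESC-PGCLC library. Against pESCs it was called higher in 306 and lower in 80 in pESC-PGCLCs (12.8% of the fit, 10.1% higher and 2.7% lower). The calls numbered 192 and 208 without either pESC library and 132 and 109 without either pESC-PGCLC library. Between pESCs and ESCs, limma called 0 genes, with 18 at an unadjusted p under 0.05, and 1 to 18 when 1 library was left out. Of the 2475 genes of this set whose 3' UTR was called, 701 also had a called promoter, in the same direction for 700. Only 94 had a called promoter without a called 3' UTR, where 1195 of the 2970 promoters stood at 10% or more in E9.5 PGCs and could fall by the 10 points a call needs.

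Genes with an island at the start had a promoter mean of 14.4% at E9.5 (2286 genes) and those without one 33.7% (684 genes), whereas their 3' UTR means were 62.1% and 60.2%. The 5' UTRs of 2487 genes, measured beside the same genes' 3' UTRs at 61.9%, had 6.81% at E9.5. Introns of 3304 genes had 43.1% beside 62.6%.

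At single genes the contrast between the ends was wider. Sp1, a general zinc finger transcription factor, had a 3' UTR between 54.3% and 95.8% over the 12 libraries and promoter group means of 1.3% to 1.8%. Ctbp2, a transcriptional corepressor, had 57.1% to 97.3%, and Ncstn, the nicastrin subunit of gamma-secretase, 60.4% to 95.4%. Zeb1, a transcription factor of epithelial to mesenchymal transition, and Svil completed the 5 largest 3' UTR excesses. The opposite order was rarer. Aqp2, the vasopressin-regulated water channel of the kidney, had 3' UTR values of 1.8% to 3.5% and a promoter mean of 97% at E9.5 and 57.7% at E12.5. Ttll10, Mfsd4b5 and Mknk1 were also among the largest promoter excesses. The 3' UTRs of Aqp2 and Ttll10 overlapped a CpG island.

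PGCLCs lay between the PGC stages. ESC-PGCLC 3' UTRs had 79.8% of the E9.5 mean and pESC-PGCLC 3' UTRs 73.1%, compared with 64.0% in E12.5 PGCs. The difference from E9.5 PGCs was -12.2 points for ESC-PGCLCs and -16.3 points for pESC-PGCLCs, and the difference from E12.5 PGCs 9.60 and 5.54 points. Each had an exact permutation p of 0.333 and no overlap between libraries. Against E9.5 PGCs, 2282 3' UTRs were called lower and 5 higher in ESC-PGCLCs (29.8% of all features were called, 29.6% lower and 0.168% higher). In pESC-PGCLCs 2752 were lower and 3 higher (40.3% of all features, 40.2% lower and 0.127% higher). These comparisons share the E9.5 libraries. Centred on the library medians, the counts were 394 lower and 164 higher, and 838 lower and 247 higher. For all 137202 features they were 6093 lower and 23524 higher, and 11613 lower and 37320 higher.

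Some 3' UTRs were far lower in PGCLCs than in either PGC stage. Ufc1, the conjugating enzyme of the ubiquitin-like protein UFM1, read 77.1%, 79%, 52.4% and 43.9% in the PGC libraries. PGCLC libraries read 19.5% and 16.4% when made from ESCs and 29.3% and 21.3% when made from pESCs. In stem cells it was low as well, between 8.6% and 17.8%. Usf1, a basic helix-loop-helix transcription factor whose gene lies on chromosome 1 like Ufc1, was lower in pESC-PGCLCs too. It had 34.3% and 32.8% in pESC-PGCLCs against 46.0% and 54.3% in E12.5 PGCs. Tmem178, a membrane protein, had 32.2%, 30.9%, 30.4% and 31.6% in the 4 PGCLC libraries and 51.3% to 78.7% in the PGC libraries. Lrrc1, a leucine-rich repeat protein, had 22.2% to 39.5% in PGCLCs and 47.8% to 75% in PGCs. The separation of PGCLC from PGC libraries in these genes follows in part from the choice, since genes were named only where compared groups did not overlap. Between pESC-PGCLCs and E12.5 PGCs, the calls of Ufc1 and Usf1 were lost without any 1 of the 4 libraries and that of Tmem178 without either pESC-PGCLC library. The call of Lrrc1 between ESC-PGCLCs and E12.5 PGCs was lost without replicate 1 of either group.

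Cdk5rap3 was lower in ESC-PGCLCs than in E12.5 PGCs, with 40.1% and 30.7% against 56.4% and 66.3%, and pESC-PGCLCs had 55.9% and 53.9%. Alg5, an enzyme of N-glycan synthesis, fell from 82.9% and 82.1% in E9.5 PGCs to 42.6% and 33.5% in ESC-PGCLCs. Plekho1 fell from 75.3% and 84.6% to 23.1% and 34.7% in pESC-PGCLCs. Pou4f3, a POU transcription factor of hair cells, had 5.7% and 9.0% in E9.5 PGCs and 17.6% to 26.5% in PGCLCs. Hoxb9 had 7.5% and 8.0% against 18.2% and 18.1% in ESC-PGCLCs. Emx2, a homeobox regulator of the forebrain and urogenital tract, had 6.2% and 2.9% against 27.1% and 23.1% in pESC-PGCLCs. Ip6k1, an inositol hexakisphosphate kinase, and Kank4, with 22.5% and 17.2% against 32.2% and 29.8%, rose in ESC-PGCLCs. Both of these calls were lost without E9.5 replicate 2, and that of Emx2 without E9.5 replicate 2 or either pESC-PGCLC library.

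Against E12.5 PGCs, 1611 3' UTRs were called higher and 17 lower in ESC-PGCLCs (22.8% of all features were called, 22.2% higher and 0.523% lower). In pESC-PGCLCs 509 were higher and 9 lower (7.1% of all features, 6.81% higher and 0.287% lower). Centred on the library medians, the first count was 356 higher and 41 lower, beside 6308 higher and 1880 lower of all 137202 features. This first count was 522 in all with a fit of all 12 libraries and 268 with a minimum of 20 points. The second count was 46 and 77 without either E12.5 library, 4 and 15 without either pESC-PGCLC library, 51 (40 higher, 11 lower) with centred libraries, and 24 with a fit of all 12 libraries. Fgfr1 was higher in both kinds of PGCLC, at 48% to 64.2% against 24.3% and 21.4%. Fanca lay at 52.7% to 57.3% against 19.6% and 21.6%. Irf8, a transcription factor of myeloid cells, had 9.9% and 11.4% in E12.5 PGCs and 37.2% to 41.2% in PGCLCs. Scnm1, a splicing factor, had 5.5% and 7.8% against 32.9% to 39.9%. Edf1, a transcriptional coactivator, had 38.9% and 47.5% against 68.5% and 71.5% in pESC-PGCLCs. Mark2, a microtubule affinity-regulating kinase, had 20% and 18.9% against 50.6% and 80% in ESC-PGCLCs, a wide replicate spread. Svop, Dip2a and Egflam completed the 5 largest rises of ESC-PGCLCs. Apobec3, a cytidine deaminase, was the fifth fall of pESC-PGCLCs, with 30.9% and 29.8% against 43.3% and 50%. The pESC-PGCLC calls of Fgfr1, Edf1 and Apobec3 were lost without any 1 of the 4 libraries, and the ESC-PGCLC call of Dip2a without either E12.5 library.

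Most 3' UTRs had a slightly lower level in pESC-PGCLCs than in ESC-PGCLCs, and few were called. The mean was 4.05 points lower in pESC-PGCLCs (44.4% ± 0.343 against 48.4% ± 0.0138, SD, n = 2, exact permutation p = 0.333), and 3145 of 3679 3' UTRs had the lower group mean there. The libraries of the 2 groups did not overlap in their means, and 1209 3' UTRs had an unadjusted p under 0.05. By the rule for calls 3 were called, where 0.0948% of all features were (0.0445% higher and 0.0503% lower). Lmtk3, a lemur tyrosine kinase, had 55.1% and 52.3% in pESC-PGCLCs and 74.2% and 73.8% in ESC-PGCLCs (adjusted p = 0.0412). Sema4a, a semaphorin, had 10.7% and 10.9% against 23.9% and 25.7% (adjusted p = 0.034). Hoxd3 had 40.2% and 24.3% against 0% in both ESC-PGCLC libraries (adjusted p = 0.0134). Lmtk3 and Sema4a lost their calls when any 1 of the 4 libraries was left out, and Hoxd3 without ESC-PGCLC replicate 2. The count rose to 64, 63 of them lower in pESC-PGCLCs, with an offset of 0.1 and to 81, 79 of them lower, with untransformed levels. Over all 137202 features it rose as well, to 1337 (1170 lower) and 1771 (1590 lower).

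No 3' UTR was called between ESCs and pESCs, in a comparison with a wide spread between ESC libraries. The means were 36.6% ± 7.81 and 36.6% ± 2.05 (SD, n = 2), a difference of 0.0464 points that leaving out 1 library moved between -5.47 and 5.57 points. The fit with limma held 148012 features, of which 0% were called, and 31 of 3679 had an unadjusted p under 0.05. The smallest p-values belonged to Zfp777, a zinc finger gene, with 0.9% and 2.9% in ESCs and 11.3% and 13.3% in pESCs, to Yjefn3, with 0% in both ESC libraries against 1.9% and 1.7%, and to Usb1, which trims U6 RNA, with 23.0% and 14.1% against 40.6% and 36.9%. Each had an adjusted p of 1. Leaving out 1 library gave between 0 and 3 calls, and the absence of calls does not show that the levels were alike.

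The mean 3' UTR level was higher in PGCLCs than in the stem cells they came from, and the difference was largest for 3' UTRs at 10% to 20% in ESCs. The mean went from 36.6% to 48.4% with ESCs and from 36.6% to 44.4% with pESCs, differences of 11.8 and 7.72 points (exact permutation p = 0.333 each). In ESC-PGCLCs, 905 3' UTRs were called higher and 19 lower than in ESCs (14.6% of all features were called, 13.7% higher and 0.899% lower). In pESC-PGCLCs, 574 were called higher and 20 lower than in pESCs (9.66% of all features, 8.91% higher and 0.746% lower). The change itself differed between the stem cell types at 1 3' UTR, that of Hoxd3, by the interaction term (0.0365% of all features were called, 0.0183% with a positive and 0.0183% with a negative sign), and that call was lost without any 1 of the 8 libraries. Of both directions together, the first count was 1987 without ESC replicate 1, 822 (741 higher, 81 lower) without ESC replicate 2, 564 without ESC-PGCLC replicate 1 and 545 without ESC-PGCLC replicate 2. The second was 330 without pESC-PGCLC replicate 1, 342 without pESC-PGCLC replicate 2, 376 without pESC replicate 1 and 419 without pESC replicate 2. With centred libraries the split turned to 414 higher and 894 lower, and to 338 higher and 844 lower. For all 136848 features of the fit it also turned, to 7115 higher and 64244 lower, and to 5935 higher and 39608 lower. The median of all features rose from 12.2% in ESCs to 24.7% in ESC-PGCLCs and from 13.2% in pESCs to 23.0% in pESC-PGCLCs, so that a 3' UTR called lower after centring rose by less than that median or fell.

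To see where the rise lay, 3' UTRs were binned by their ESC level and followed in pESCs and pESC-PGCLCs, whose libraries did not set the bins. The 666 3' UTRs under 10% in ESCs had 4.63% ± 0.564 (SD, n = 2) in pESCs and 14.7% ± 0.0236 in pESC-PGCLCs. The 313 at 10% to 20% had 15.7% ± 0.275 and 34.7% ± 0.0867, the largest difference of the bins at 19 points. The 793 at 20% to 40% differed by 12.8 points and the 1440 at 40% to 60% by 4.29 points, and the 467 at 60% or more went from 65.0% ± 3.82 to 63.8% ± 0.375. The share called higher was 28.7%, 58.8%, 23.5%, 0.833% and 0.214% from the lowest bin to the highest. In E9.5 PGCs, 110 of the 666 lowest were at 60% or more and 436 were under 20%, so the lowest bin held 3' UTRs of both kinds.

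**Figure D4:**
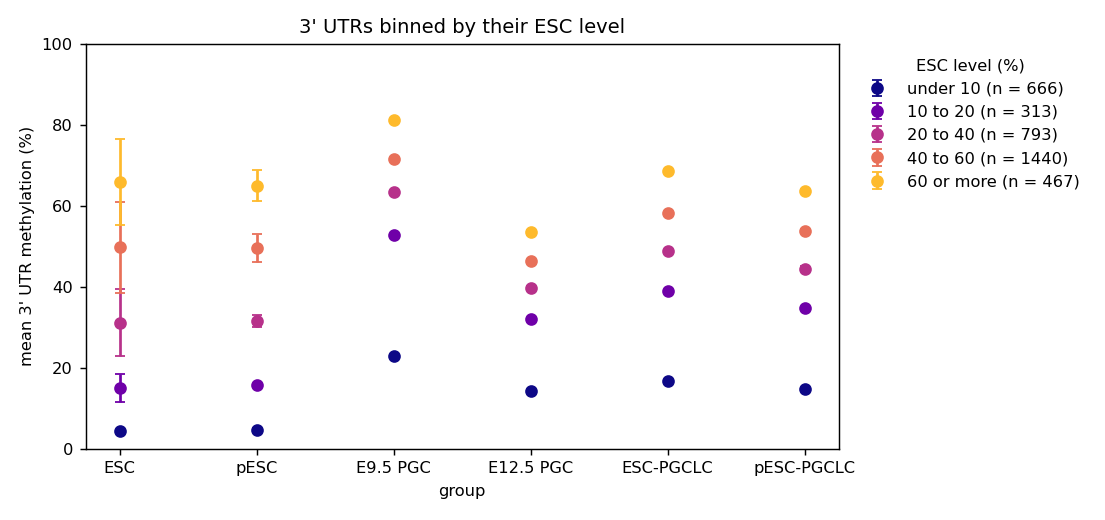
Mean 3' UTR methylation in percent in each group for 3' UTRs binned by their ESC level. Points are means of 2 libraries and bars are SD over the 2 libraries, smaller than the points in PGCs and PGCLCs. The order of the bins is the same in all 6 groups, and the bins lie closer together in PGCs and PGCLCs than in stem cells, except for the lowest.

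A set of 71 3' UTRs was under 10% in all 4 stem cell libraries and at 60% or more in both E9.5 PGC libraries. These limits were set after the values were seen, so the set is a description. Its mean was 4.88% and 5.08% for ESCs and pESCs and 74.8% at E9.5. E12.5 PGCs had 46.3%, and PGCLCs had 55.5% from ESCs and 47% from pESCs. A CpG island overlapped 4 of the 71, and the promoter means of the 57 genes with promoter levels ran from 8.03% in ESCs to 17.4% in E9.5 PGCs. Nupl2, a nucleoporin-like gene, had 5.1% to 8.1% in stem cells and 81.1% and 80.4% in E9.5 PGCs. PGCLC libraries had 77.8% and 82% when made from ESCs and 71.3% and 71.4% when made from pESCs. Its rise of 74.2 points in ESC-PGCLCs was the largest called (log2 odds 5.79 ± 0.26 SE, adjusted p = 7.45e-05), and its E12.5 PGC values were 69.6% and 72.6%.

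Pde4dip, a Golgi and centrosome scaffold, had 3.1% to 6.7% in stem cells, 91.2% and 91.6% in E9.5 PGCs and 64.3% to 74.0% in PGCLCs. Pmepa1, an inhibitor of TGF-beta signalling, had 1.4% to 4.0% in stem cells, 82.4% and 81.3% in E9.5 PGCs and 54.1% to 72.8% in PGCLCs. Hykk, hydroxylysine kinase, went from 4.1% to 7.9% in stem cells to 76.7% and 79.1% with ESCs and 59.4% and 58.3% with pESCs. Klhl26, Fam78a, Reep3 and the kinase Ick behaved in the same way, each between 2.3% and 9.6% in stem cells and between 57.9% and 77.6% in PGCLCs. Lack of overlap between stem cell and PGCLC libraries was a condition for naming these genes, so it follows from the choice.

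The reverse pattern, at 40% or more in all 4 stem cell libraries and under 20% in both E9.5 PGC libraries, held for 4 3' UTRs, those of Emx2, Hoxd3, Ntrk2 and Pou4f3. Emx2 had 73.9%, 43.2%, 63% and 55.8% in the 4 stem cell libraries and 6.2%, 2.9%, 4.4% and 0.4% in the 4 PGC libraries. After induction it had 10.7% and 11.1% with ESCs and 27.1% and 23.1% with pESCs. Its fall was called with both stem cell types (-47.6 points, adjusted p = 0.00416, and -34.3 points, adjusted p = 0.0476), and the second call was lost without any 1 of its 4 libraries. Ntrk2, the receptor of brain-derived neurotrophic factor, fell from 70.8% and 49.3% in ESCs to 18% and 18.2%, and from 61.8% and 58.5% in pESCs to 16.9% and 14.6%, and had 4.6% and 5% in E12.5 PGCs. Pou4f3 had 49.7% to 64.1% in stem cells. Rhcg, an ammonium transporter, fell from 44.4% to 57.7% in stem cells to 24.5% to 26.6% in PGCLCs, and Hsd17b7, an enzyme of sterol synthesis, fell from 61.2% and 58.5% in pESCs to 32.5% and 29.7%. With pESCs, the calls of Rhcg and Pou4f3 were lost without pESC replicate 1 or pESC-PGCLC replicate 1, and that of Rhcg also without pESC-PGCLC replicate 2. The promoters of the 4 genes of the set had a mean of 8.44% in ESCs and 2.91% in E9.5 PGCs.

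**Figure D5:**
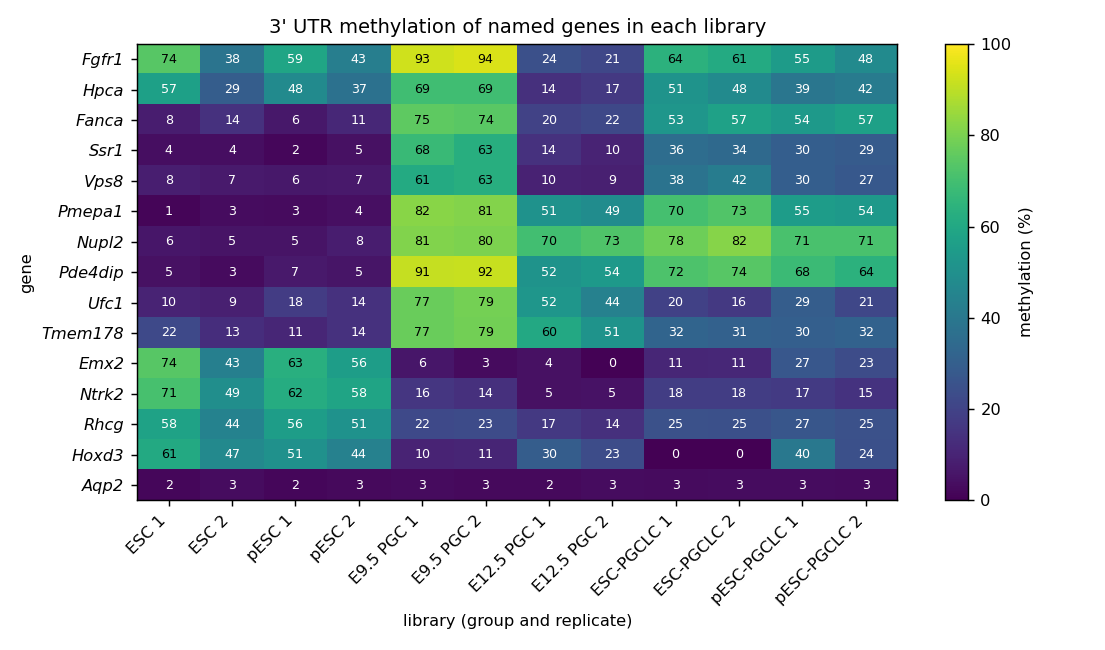
Methylation level in percent of the 3' UTR of 15 named genes (rows) in each of the 12 libraries (columns), with the value printed in each cell. Pmepa1, Nupl2 and Pde4dip are low in the 4 stem cell libraries and high elsewhere, Emx2 and Ntrk2 show the opposite, and Aqp2 is at 2% to 3% throughout after rounding.

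Gene families are given beside the median change of all 3679 3' UTRs between E9.5 and E12.5, -23.8 points, and beside the share of them called lower, 81.8%. Of 39 Hox genes, 16 were measured, 7 of them overlapping an island. Their median was 3.18% in E9.5 PGCs and 3.59% in E12.5 PGCs, none was called lower and Hoxd3 and Hoxd8 were called higher. The 5 measured histone genes had a median of 3.24% and 2.88% with no call. Most of the Hox and histone 3' UTRs were under 10% in E9.5 PGCs and could not fall by the 10 points a call needs. Their lack of calls is therefore not comparable with the 81.8%. Of 15 clustered protocadherin entries, 13 carried 1 shared value, listed under Pcdha names, of 95.7% and 90.3% in E9.5 PGCs against 88.5% and 69.2% in E12.5 PGCs, not called (adjusted p = 0.0621). In ESCs that shared 3' UTR had 83.3% and 21.4%. Pcdha6 was called lower, and Pcdhgc3 stayed between 1.9% and 5.8%.

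Of 60 Zfp zinc finger genes, 48 were called lower at E12.5, close to the 81.8% of all 3' UTRs, with a median change of -24.7 points. Zfp764 fell from 79.5% and 78.4% to 32.7% and 41.3%, whereas Zfp36l2 stayed between 0.7% and 3.1% in every library. Zfp467, at 1.3% to 2.2% in stem cells, had 11.3% and 12.2% in E9.5 PGCs against 12.8% and 13% in E12.5 PGCs and was not called.

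All 5 measured paternally expressed imprinted genes were called lower at E12.5, beside 81.8% of all 3' UTRs, with a median change of -28.0 points. Imprinted genes are expressed from 1 parental copy only, under marks that sit mostly at control regions outside the 3' UTR. Peg3 fell from 83.6% in both libraries to 47.3% and 46.5%, Sgce from 80.7% and 79.6% to 52.8% and 54.9%, and Peg10 from 85.8% in both to 59.3% and 56.3%. Nnat and Dlk1 completed the list. All 5 maternally expressed ones were called lower too, beside the same 81.8%, with a median change of -25.4 points. Tssc4 went from 86.7% and 89.0% to 52.1% and 53.6%, and Cdkn1c, a cell cycle inhibitor, from 59.2% and 53.7% to 21.1% and 27.3%. Between pESCs and ESCs none of the 10 was called. Nnat had 29.4% and 37.7% in pESCs and 19.2% and 16.2% in ESCs, Gnas 21.4% and 22.5% against 13.2% and 16.1%, and Sgce 17.6% and 18% against 13.9% and 15.4%. These 3 did not overlap between the groups, and the other 7 did. With 2 libraries against 2, a lack of overlap has an exact two-sided permutation p of 0.333. The share of all 3' UTRs without overlap is not given here, so no difference is drawn from these 3.

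Among 7 pluripotency and germ cell specification genes, 6 were called lower at E12.5, beside 81.8% of all 3' UTRs, with a median change of -20.0 points. Klf2, a naive pluripotency factor, had 1.0% to 1.1% in all 4 stem cell libraries, 59.9% and 60% in E9.5 PGCs, 35.6% and 37.3% at E12.5 and 32% to 41.4% in PGCLCs. Its libraries thus formed levels that did not overlap between stem cells and the rest. Lin28a, an inhibitor of let-7 processing, went from 73.7% and 72.8% to 49.1% and 50.1%, and Esrrb from 71.2% and 67.1% to 48.8% and 44.7%. Fgf4 was not called, at 11.1% and 11% against 9.6% and 8.7%.

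Of 7 DNA methylation genes, 6 were called lower, beside the same 81.8%, with a median change of -23.7 points. Mbd2, a methyl-CpG binding protein, fell from 41.8% and 44.2% to 8.3% and 11.3%, and Tet3, which oxidises methylcytosine, from 86.6% and 85.9% to 53.8% and 59.3%. Tet1 was not called, and its ESC-PGCLC libraries read 31.1% and 85.7%. Of 8 genes of 3' end formation and small RNA pathways, 7 were called lower, again beside 81.8%, with a median change of -27.0 points. Ago2, the slicer of RNA interference, had 12.4% to 26.9% in stem cells, 83.1% and 82.1% in E9.5 PGCs and 51% and 54.1% in E12.5 PGCs. Pabpn1, the nuclear poly(A)-binding protein, lay between 0% and 8.3%. The single measured gene of the germline list, Tdrd9, a helicase of transposon silencing, fell from 74.9% and 71.4% to 55.2% and 50.3%.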

How the data were processed

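RRBS was done on genomic DNA of 12 libraries. According to the labels and the study's methods, the authors aligned reads with Bismark 0.16.3 and Bowtie2 to mm10 and corrected levels for bisulfite non-conversion. The deposited values are fractions from 0 to 1, the share of methylated CG calls in a feature, with 1 value per gene and class, and replicates were not pooled. The coverage minimum, gene annotation and promoter definition are not given in the sources used here, and without read counts the depth and precision of each value are unknown.

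Levels were transformed to log2((level + 0.01) / (1 - level + 0.01)) and fitted with limma 3.58.1 in R 4.3.3 to all features with a level in each library of the fit, with Benjamini-Hochberg adjustment over all of them. PGCs and PGCLCs shared 1 fit of 8 libraries, stem cells and PGCLCs another, and ESCs and pESCs a fit of 4. Called features had an adjusted p under 0.05 and a difference of at least 10 points. For means, exact permutation tests over libraries were two-sided (scipy 1.17.1). The gap was fitted as the difference of the log2 odds of both regions of a gene. Its direction and its limit of 10 points were taken from the levels in percent. Python 3.11.15, numpy 2.4.6, pandas 2.3.3, pysam 0.24.0 and matplotlib 3.10.9 were used. The fits were also run on simulated data with added differences. There the fits that hold stem cells recovered almost none of these differences, and the fit of PGCs and PGCLCs recovered a part.

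Gene names, starts and 3' UTRs came from GENCODE M21 and sequence from the RefSeq copy of GRCm38. The 3' UTR of a gene is the union over its transcripts, so it can hold several pieces. Islands are those in the files. An island or gene start counted within 500 bp. Groups and replicate numbers came from sample titles. The members, gene lists and naming rule were chosen with earlier results of these data known. Named genes were the 5 largest rises and falls called without overlap in each comparison (10 for E12.5 against E9.5 PGCs), the 3 smallest p-values where none was called, the 5 extremes of level and of promoter difference, and the extremes of each list. Predicted and clone names were passed over. A few named genes are not reported here. The 34 X-linked entries and 2 without an annotated gene were left out. Alternatives changed the offset, scale, centring, fit, threshold and libraries.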

Additional observations from a re-analysis of the deposited data

Results flagged for a closer look

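The 3' UTR of Hoxd3 was the only one whose change on induction differed between stem cell types by the interaction term of limma (38.9 points, adjusted p = 0.0359), where 0.0365% of all features were called. It went from 60.7% and 47.0% in ESCs to 0% in both ESC-PGCLC libraries, and from 50.6% and 43.9% in pESCs to 40.2% and 24.3% in pESC-PGCLCs. The call was lost with an offset of 0.1, with untransformed levels and without any 1 of the 8 libraries.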

How the results depend on the processing

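With centred libraries, counts of called 3' UTRs were 1590 (E12.5 against E9.5 PGCs), 558 and 1085 (ESC-PGCLCs and pESC-PGCLCs against E9.5 PGCs), 397 and 51 (the same against E12.5 PGCs), 1 (between PGCLCs) and 1182 (pESC-PGCLCs against pESCs). In the same order, the counts over all features of the fits were 63589, 29617 and 48933, 8188 and 1136, 103 and 45543. A minimum of 20 points left 454 and 1296 against E9.5 PGCs and 268 and 46 against E12.5 PGCs. A fit of all 12 libraries gave 522 and 24 against E12.5 PGCs and 1 between PGCLCs, where an offset of 0.1 gave 64 and untransformed levels 81. Between PGCLCs, that offset gave 1337 calls over all 137202 features and untransformed levels 1771. The interaction gave 0 with an offset of 0.1 and 0 with untransformed levels. The causes were not tested. Medians over 3' UTRs differed by -26.0 points (E12.5 against E9.5 PGCs), -14.8 and -19.7 (PGCLCs against E9.5 PGCs), 11.2 and 6.37 (against E12.5 PGCs) and -4.86 (between PGCLCs), and ESC-PGCLCs differed from E9.5 PGCs by -12.5 over every autosomal entry. The gap of 3' UTR and promoter changed by -19.7 as a median over genes and -9.09 without islands at the start between PGC stages, and by 9.55 as a median with pESCs. As a ratio of group means, its direction turned at E12.5 (1.02) and with ESCs (0.969) and pESCs (0.989), and pESCs against ESCs gave 0.970.

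Leaving out 1 library gave, for called 3' UTRs, 0 to 3 (pESCs against ESCs), 4 to 77 (pESC-PGCLCs against E12.5 PGCs), 0 to 4 (between PGCLCs), 545 to 1987 (ESC-PGCLCs against ESCs), 330 to 419 (pESC-PGCLCs against pESCs) and 0 to 1 (interaction). For genes with a changed gap it gave 1 to 18 (pESCs against ESCs), 187 to 998 (with ESCs) and 109 to 208 (with pESCs). Mean differences ranged from -5.47 to 5.57 (pESCs against ESCs), 6.30 to 17.3 (ESC-PGCLCs against ESCs), 6.27 to 9.17 (pESC-PGCLCs against pESCs), -22.1 to -21.6 (PGC stages), -12.3 to -12.2 and -16.5 to -16.1 (against E9.5 PGCs), 9.38 to 9.81 and 5.30 to 5.79 (against E12.5 PGCs) and -4.30 to -3.81 (between PGCLCs). The gap change ranged from -5.04 to 4.49, -15.5 to -15.2, 3.499 to 13.03 and 3.99 to 6.9996 in the order pESCs against ESCs, PGC stages, ESCs and pESCs.

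By the labels, same-numbered libraries shared a number only. In both stem cell groups replicate 2 was the lower at most 3' UTRs, 83.8% in ESCs and 68.1% in pESCs. Deviations of ESCs and pESCs with the same number correlated at 0.563, and the other pairs of groups lay between -0.0296 and 0.116. With the replicate number as a block, 1 3' UTR was called between PGCLCs and 2 genes had a changed gap between pESCs and ESCs. The block changed no other count of calls by over 1.5 times. It ended the calls of Umod (E12.5 against E9.5 PGCs), Edf1 and Usf1 (pESC-PGCLCs against E12.5 PGCs) and Lmtk3 and Sema4a (between PGCLCs). Of the tests of named genes under settings that kept all libraries, 565 kept their call, 46 lost it and 0 reversed. Most of these genes were named for large calls without overlap in the same data. Keeping a call therefore follows in part from that choice, and these counts are no independent check of the calls. With centred libraries ESC-PGCLCs against ESCs gave 1308 calls, 414 higher and 894 lower, so that the majority turned. It turned for all 136848 features of that fit too, at 7115 higher and 64244 lower. Depth is unknown and 2 libraries a group limit every test.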

Other observations

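The 34 X-linked 3' UTRs with a level in every library, which enter no comparison above, had a mean of 33.8% ± 7.39 (SD, n = 2) in ESCs and 35.5% ± 1.05 in pESCs. PGCs had 64.6% ± 0.555 at E9.5 and 41.3% ± 0.931 at E12.5, and PGCLCs had 49.9% ± 1.41 from ESCs and 46.8% ± 0.0463 from pESCs.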
